A study of Mus musculus with 10 samples.

Results

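The CaM kinase family was followed through the development of the mouse neocortex as 8 genes: Camk2a, Camk2b, Camk2d, Camk2g, Camk4, Camkv, Camkk1 and Camkk2. They were chosen by gene name, and all 8 were found among the 6147 genes of the deposited table. Polyadenylated RNA came from frozen neocortex lysates of wild-type mice of the outbred CD1 strain, with 2 libraries, described as biological duplicates, at each of 5 stages: embryonic days E12.5, E14, E15.5 and E17 and the day of birth (P0). No group carried a mutation or treatment, and how many animals or litters stand behind a library was not stated in the sources used here. Abundance is given in TPM, a share of all transcripts that is corrected for gene length. Levels of different genes within a library can be compared only as far as the gene lengths used were right. Those lengths were not stated in the sources used here.

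CaM kinases are switched on when calcium enters a cell and binds calmodulin. CaMKII, the best known of them, is a large assembly of subunits made from the 4 genes Camk2a (alpha), Camk2b (beta), Camk2d (delta) and Camk2g (gamma). The alpha and beta subunits are the main forms in neurons, where CaMKII is an abundant protein of excitatory synapses, whereas gamma and delta are found in many tissues. CaMKIV, encoded by Camk4, is enriched in the nucleus and phosphorylates the transcription factor CREB. The kinases encoded by Camkk1 and Camkk2 act upstream and phosphorylate CaMKI and CaMKIV. Camkv encodes a vesicle-associated relative that lacks kinase activity.

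The genes could be told apart in sequence. Of the distinct 50-base stretches in their annotated protein-coding transcripts (GENCODE M21), none was found in a transcript of another gene, apart from 19 of 5743 (0.331%) of Camk2a, which also lay in predicted genes. The single exonic overlap was 72 bases (2.21%) of Camk4 with an antisense gene on the opposite strand, and how strand was handled in counting was not stated in the sources used here. Camk2b lies on the reverse strand of chromosome 11 (5969644 to 6066362, GRCm38), Camk2d on chromosome 3 (126596302 to 126846326), Camk2g on the reverse strand of chromosome 14 (20734875 to 20794088) and Camkv on chromosome 9 (107935674 to 107949691). Camkk1 is on chromosome 11 (73019008 to 73042073) and Camkk2 on the reverse strand of chromosome 5 (122731170 to 122779409). Camk2a and Camk4 share a chromosome, 18, at 60925618 to 60988152 and 32934931 to 33191228.

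The 250 bases before the RefSeq start of the CaMKII gene that rose most, Camk2b, and of the one that changed least, Camk2d, are shown for comparison (GRCm38.p6, chr11:6065749-6065998 on the reverse strand and chr3:126596701-126596950 on the forward strand). Capitals mark the GC box, GGGCGG, on either strand.
Camk2b: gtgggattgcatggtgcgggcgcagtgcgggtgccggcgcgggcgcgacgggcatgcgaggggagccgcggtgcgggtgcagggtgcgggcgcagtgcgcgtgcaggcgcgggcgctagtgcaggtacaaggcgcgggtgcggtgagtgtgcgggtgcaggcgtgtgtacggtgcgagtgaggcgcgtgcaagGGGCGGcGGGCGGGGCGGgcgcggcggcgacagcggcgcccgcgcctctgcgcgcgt
Camk2d: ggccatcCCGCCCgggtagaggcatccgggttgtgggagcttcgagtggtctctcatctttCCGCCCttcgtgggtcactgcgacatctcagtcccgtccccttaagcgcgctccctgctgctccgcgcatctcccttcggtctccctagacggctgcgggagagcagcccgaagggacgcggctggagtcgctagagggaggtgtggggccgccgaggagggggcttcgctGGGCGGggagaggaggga
Each window held 3 GC boxes. In Camk2b they lay together, beginning at positions -57, -50 and -45 (-1 is the last base before the start), and in Camk2d at positions -243, -189 and -18. GC boxes were found in 32.7% of the 32851 windows of this length in the RefSeq table. The G and C content was 78.4% in Camk2b and 68.4% in Camk2d, against a median of 52.4% over all windows. Neither window held the cAMP response element TGACGTCA (found in 1.55% of windows), the shorter TGACG that lies within it (17.8%), the CCAAT box CCAAT (33.8%), the TATA box TATAAA (12.4%) or the E-box CAGATG (14.4%) on either strand. Such matches describe letters only and do not show that a factor binds. Promoter windows were found for 5 of the 8 genes. Both printed windows lie within the GENCODE M21 span of their gene, downstream of its outermost annotated start, and overlap none of its exons.

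Several measures of the whole series bear on these genes. The E17 pair had the widest spread, with an SD of the difference between replicates of 0.285 on the log2 scale over 6048 genes, against 0.088 to 0.176 at the other stages. All 8 CaM kinase genes were higher in E17 replicate 1 than in replicate 2, by 1.03 to 1.34 times, as were 72.0% of the genes tested. Markers of the neocortical excitatory lineage were present in every library, with Emx1 between 51.0 and 177 TPM, Neurod2 between 246 and 657, Tbr1 between 69.3 and 159 and Bcl11b between 66.2 and 147. Neuron markers (9 of 10 in the table) rose and markers of dividing progenitors (11 of 12) fell, with median log2 changes between E12.5 and P0 of 2.49 and -4.00. In bulk tissue, a higher share of neurons and more RNA of a gene per neuron cannot be told apart.

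From E12.5 to P0 all 8 genes rose, in a table where 78.2% of the 6048 tested genes were called, 27.1% higher and 51.0% lower. A gene is called here when limma's moderated test on log2(TPM + 1), with Benjamini-Hochberg adjustment over all 6048 genes, gave an adjusted p under 0.05. Camk2b rose 23.1 times in mean TPM, Camkv 17.5 times and Camk4 9.64 times. Camkk1 rose 3.51 times, Camk2a 2.59 times, Camkk2 2.53 times, Camk2g 2.28 times and Camk2d 1.24 times. The median log2 change of the 8 genes was 1.51, against -0.27 for all genes tested. Over the 5 stages together, each of the 8 was called in limma's F test, as were 82.9% of all genes, with adjusted p from 8.27e-11 (Camk2b and Camkv) to 0.00255 (Camk2d).

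**Figure D1:**
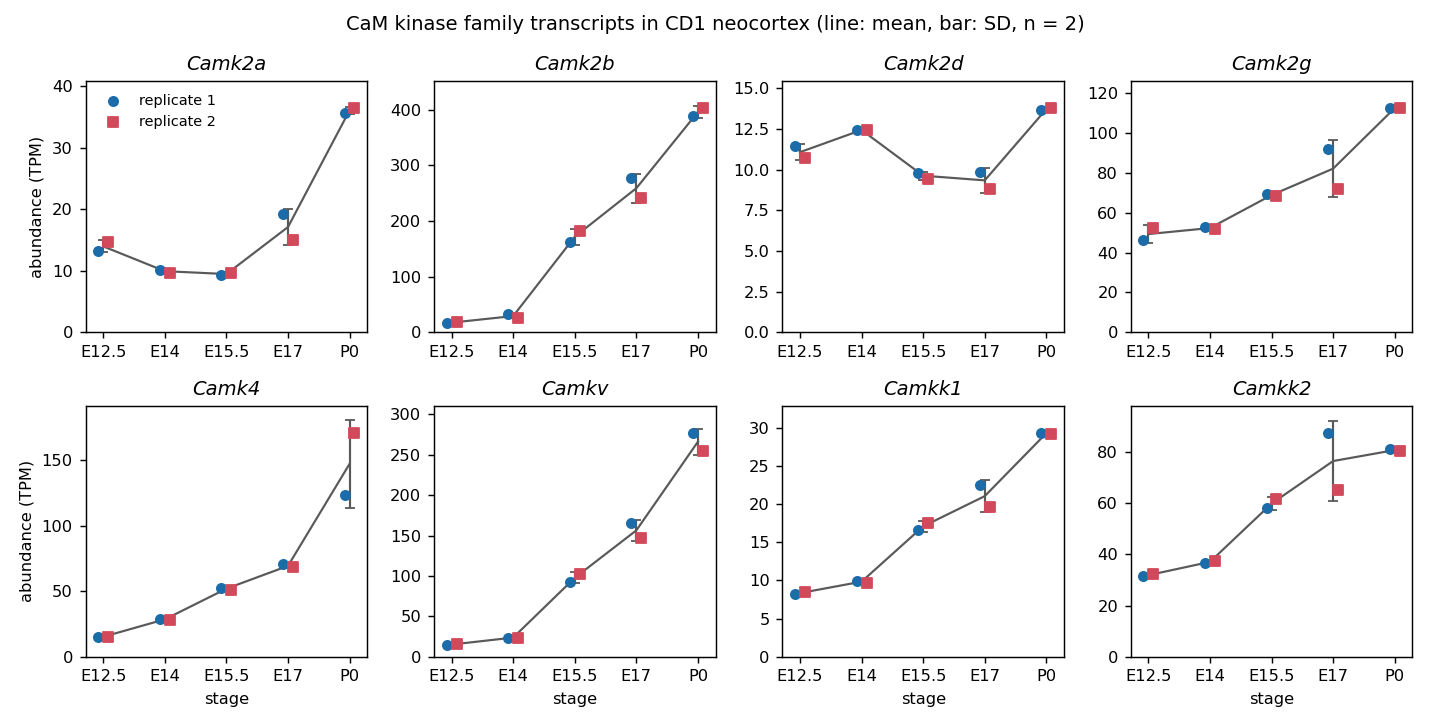
Abundance in TPM (vertical axes, each from 0 and on its own scale) of the 8 CaM kinase genes at the 5 stages; circles and squares are the 2 libraries, lines join the means and bars are the SD. Camk2b, Camkv and Camk4 climb throughout, Camk2a dips to about 9.45 TPM at E15.5 before it rises to 36.1 TPM, and Camk2d stays between 8.80 and 13.8 TPM.

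Camk2b, the beta subunit of CaMKII, was measured at 16.6 and 17.7 TPM at E12.5, 31.9 and 26.1 at E14, 162 and 182 at E15.5, 278 and 241 at E17, and 389 and 404 at P0. No 2 stages overlapped, and each later pair lay above the one before. On the log2 scale the gene rose by 4.45 from E12.5 to P0 (SE 0.11, limma adjusted p 2.77e-11), and the step from E14 to E15.5 alone was 2.53 (SE 0.11, adjusted p 2.28e-08). Camk2b passed from the third highest of the 8 genes at E12.5 to the highest at E15.5, and it held that place at E17 and P0.

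Camk2a, the alpha subunit, followed another course. Its values were 13.3 and 14.6 TPM at E12.5, 10.2 and 9.69 at E14, 9.26 and 9.64 at E15.5, 19.2 and 15.0 at E17, and 35.7 and 36.5 at P0. Both E14 libraries lay below both E12.5 libraries, and a later pair first exceeded the E12.5 pair at E17. The fall from E12.5 to E14 was -0.45 (SE 0.12, adjusted p 0.0389 in limma), and it was not called in 11 of 24 alternatives (highest adjusted p 0.294), which include each one that left out a single E12.5, E14, E15.5 or P0 library. The rises from E15.5 to E17 (0.78, SE 0.12, adjusted p 0.00134) and from E17 to P0 (1.04, SE 0.12, adjusted p 9.49e-05) were called, the first of them not with only the 4 libraries compared in the fit (adjusted p 0.0653). At P0, Camk2a was the sixth of the 8 genes in abundance.

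Camk2g, the gamma subunit, was the most abundant of the 8 genes at E12.5 and E14. It stood at 46.2 and 52.4 TPM at E12.5, 52.7 and 51.9 at E14, 69.6 and 68.2 at E15.5, 92.3 and 72.1 at E17, and 113 and 113 at P0. The E12.5 and E14 libraries overlapped, and all later pairs lay above them. From E12.5 to P0 it rose by 1.18 (SE 0.11, adjusted p 1.19e-06). The first step of 0.09 was not called (95% confidence interval -0.15 to 0.33, adjusted p 0.667). The step from E14 to E15.5 was 0.39 (adjusted p 0.0111), with 5 of 24 alternatives that did not call it (highest adjusted p 0.0654).

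Camk2d, the delta subunit, had the smallest change. Its libraries read 11.4 and 10.7 TPM at E12.5, 12.4 and 12.4 at E14, 9.81 and 9.45 at E15.5, 9.88 and 8.80 at E17, and 13.7 and 13.8 at P0. The E15.5 and E17 pairs overlapped and were the lowest, and the P0 pair was the highest. It fell from E14 to E15.5 (-0.34, SE 0.10, adjusted p 0.0164 in limma) and rose from E17 to P0 (0.51, SE 0.10, adjusted p 0.0027). The net rise from E12.5 to P0 was 0.29 (SE 0.10, adjusted p 0.0228), and it was not called without either single E12.5 or P0 library, with adjusted p of 0.0538 and 0.139 without E12.5 replicates 1 and 2, and of 0.0521 and 0.0605 without P0 replicates 1 and 2. Both sizes depended on the scaling: under quantile normalization the net rise was 0.70 (adjusted p 1.66e-05) and the fall from E14 to E15.5 was -0.14 (adjusted p 0.2), and this fall was not called in 6 of 24 alternatives.

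Together, the 4 CaMKII genes summed to 91.5 ± 5.64 TPM at E12.5 (SD, n = 2) and 104 ± 4.92 TPM at E14. The sum then went up to 260 ± 13.3 TPM at E15.5, 368 ± 44.2 TPM at E17 and finally 559 ± 10.8 TPM at P0, 6.11 times the first value. The make-up of this sum turned over between E14 and E15.5. Camk2g gave 52.8% and 54.9% of it in the E12.5 libraries and 50.5% ± 1.88 at E14 (SD, n = 2), but 26.6% ± 1.73 at E15.5 and 20.2% ± 0.403 at P0. Camk2b went from 18.8% ± 0.314 at E12.5 and 27.9% ± 2.59 at E14 to 66.1% ± 2.10 at E15.5 and 70.9% ± 0.456 at P0. The share of Camk2a was 15.2% at E12.5, lowest at E15.5 with 3.64%, and 6.46% at P0. Camk2d held 12.1% at E12.5 and 2.46% at P0.

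**Figure D2:**
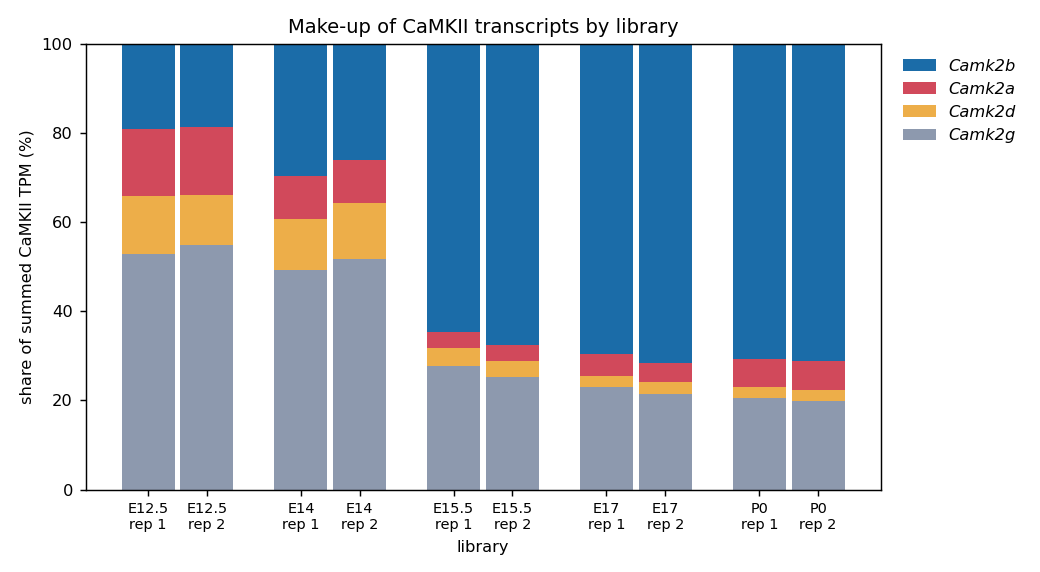
Share of the summed TPM of the 4 CaMKII genes (vertical axis, in percent) in each of the 10 libraries (horizontal axis). The Camk2g segment, the largest at E12.5 and E14, gives way to that of Camk2b from E15.5 on, and the 2 libraries of each stage are alike.

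Ratios between pairs of genes within each library were tested next, by an exact permutation F test that runs through all 945 ways to put the 10 libraries into 5 pairs, adjusted over 3 ratios. The log2 ratio of Camk2b to Camk2a started at 0.28 ± 0.03 (SD, n = 2) at E12.5 and reached 1.45 ± 0.15 at E14. It was highest at E15.5, with 4.04 ± 0.08, and stood at 3.85 ± 0.09 at E17 and 3.42 ± 0.02 at P0. The beta transcript thus stood at 1.21 times alpha at E12.5, at 16.5 times at E15.5 and at 10.7 times at P0, all on the TPM + 1 scale. The exact permutation p was 0.00106 (adjusted 0.00317), the smallest that these pairings can give. The log2 ratio of Camk2g to Camk2d rose from 2.06 ± 0.19 at E12.5 to 2.95 ± 0.01 at P0, a difference of 0.89, with 2.72 ± 0.01 at E15.5 (exact permutation p 0.00952, adjusted 0.0143). Camkk2 to Camkk1, in contrast, gave mean log2 ratios between 1.75 and 1.81 at the 4 embryonic stages and 1.43 at P0 (exact permutation p 0.0942, adjusted 0.0942, not called). With a pseudocount of 10 TPM the difference in this last ratio between P0 and E12.5 was 0.017 in place of -0.38, with an adjusted exact permutation p of 0.0212.

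Camkv, the kinase-dead relative, was at 14.3 and 16.1 TPM at E12.5, 23.7 and 23.8 at E14, 93.0 and 103 at E15.5, 166 and 147 at E17, and 278 and 255 at P0. No stages overlapped. It rose by 4.05 from E12.5 to P0 (SE 0.09, adjusted p 2.77e-11 in limma), and 1.99 of this came between E14 and E15.5 (SE 0.09, adjusted p 4.79e-08). From E15.5 on it was second to Camk2b at every stage. Its profile and that of Camk2b, each centred on its own mean, differed by 0.261 (root mean square over the 10 libraries, log2 scale).

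Camk4 rose at each of the 4 steps. Its libraries gave 15.2 and 15.3 TPM at E12.5, 28.8 and 28.4 at E14, 52.7 and 51.3 at E15.5, 70.5 and 68.2 at E17, and 123 and 171 at P0. The P0 pair was wide apart, yet both lay above both E17 libraries. The steps were 0.86 (adjusted p 0.00284 in limma), 0.84 (0.000183), 0.41 (0.0343) and 1.06 (0.000112), and the whole rise was 3.17 (SE 0.13, adjusted p 7.93e-10). The third of these steps was not called in 9 of 23 alternatives (highest adjusted p 0.176), which include each one without a single E12.5, E14 or E15.5 library.

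The upstream kinases rose more modestly. Camkk1 was the lowest of the 8 genes at E12.5, with 8.25 and 8.44 TPM, and went through 9.99 and 9.69 at E14, 16.6 and 17.6 at E15.5 and 22.5 and 19.6 at E17 to 29.4 and 29.2 at P0. Camkk2 was more abundant, at 31.4 and 32.3 TPM at E12.5, 36.8 and 37.4 at E14, 58.0 and 61.6 at E15.5, 87.5 and 65.3 at E17, and 81.2 and 80.2 at P0. For Camkk1 no stages overlapped, while for Camkk2 both P0 libraries lay between the E17 libraries. From E12.5 to P0 the changes were 1.70 for Camkk1 (SE 0.10, adjusted p 2.89e-08 in limma) and 1.31 for Camkk2 (SE 0.12, adjusted p 8.23e-07). Both were called from E14 to E15.5 (0.74 and 0.68). From E17 to P0 Camkk1 rose (0.46, adjusted p 0.00481), and Camkk2 stood at 0.09 (95% confidence interval -0.16 to 0.35, adjusted p 0.546); without E17 replicate 1 the change of Camkk2 was 0.30 and was called (adjusted p 0.0088), and without E17 replicate 2 it was -0.12. With array weights, neither the rise of Camkk1 at this last step (adjusted p 0.0875 in limma) nor that of Camk2d (0.0676) was called. The same held with only the 4 libraries compared in the fit (adjusted p 0.076 and 0.0703).

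Taken by step, the count of CaM kinase genes called was 4 of 8 from E12.5 to E14 (8.73% of all genes), of which Camk2b, Camk4 and Camkv rose (3.95%) and Camk2a fell (4.78%). Without E12.5 replicate 1 the count at this step was 1 of 8, Camk4. From E14 to E15.5 it was 7 of 8 (51.7% of all genes), with 6 higher (18.4%) and Camk2d lower (33.3%). From E15.5 to E17 it was 4 of 8 (25.0%), all higher (14.4%): Camk2a, Camk2b, Camk4 and Camkv. This count was 7 without E17 replicate 2 and 1 with only the 4 libraries compared in the fit. From E17 to P0 it was 7 of 8 (41.7%), all higher (12.9%), and Camkk2 was the exception. The lowest count at this last step over 23 alternatives was 5. The median changes of the 8 genes over the 4 steps were 0.21, 0.71, 0.37 and 0.56, beside -0.06, -0.13, 0.01 and -0.10 for all genes.

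Counted by the libraries themselves, both E14 values lay above both E12.5 values in 6 of the 8 genes (24.7% of all genes) and below them in 1 (45.4%). From E14 to E15.5 the later pair was above in 6 (31.6%) and below in 2 (56.1%), Camk2a and Camk2d. From E15.5 to E17 it was above in 7 (30.7%) and below in 0 (29.7%), and from E17 to P0 above in 7 (22.0%) and below in 0 (39.9%). Between E12.5 and P0 it was above in 8 (32.5%) and below in 0 (58.4%).

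The order of the 8 genes by mean TPM changed with these steps. At E12.5 it ran Camk2g, Camkk2, Camk2b, Camk4, Camkv, Camk2a, Camk2d and Camkk1, and the libraries of Camk4 and Camkv, and of Camkv and Camk2a, overlapped. At E15.5 it ran Camk2b, Camkv, Camk2g, Camkk2, Camk4, Camkk1, Camk2d and Camk2a, with an overlap between Camk2d and Camk2a. At P0 no neighbours overlapped, and the order was Camk2b, Camkv, Camk4, Camk2g, Camkk2, Camk2a, Camkk1 and Camk2d.

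**Figure D3:**
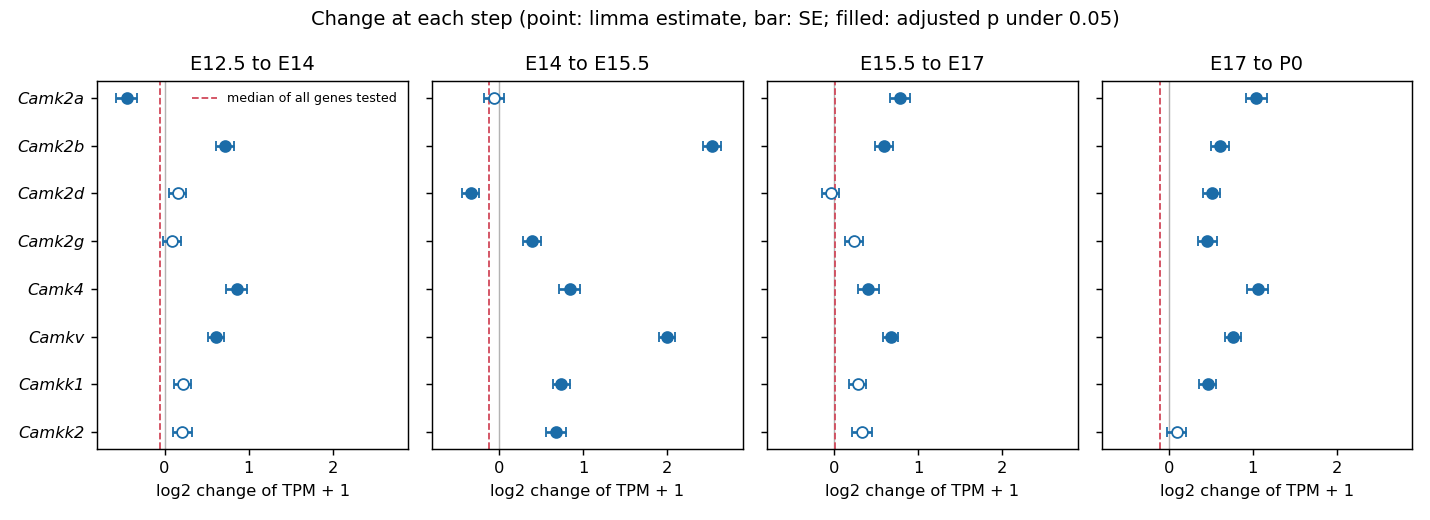
Change of each gene on the log2(TPM + 1) scale (horizontal axis) at each of the 4 steps; points are limma estimates, bars their SE, filled points have an adjusted p under 0.05, and the dashed line is the median of all genes tested. Camk2b at 2.53 and Camkv at 1.99 lie far to the right from E14 to E15.5, and from E17 to P0 no point lies below 0.

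The step from E14 to E15.5 coincided with a fall in listed markers of blood, vessels, meninges and choroid plexus. Red blood cell genes (3 of 10 in the table) summed to between 1880 and 4494 TPM at E12.5 and E14 and to at most 9.84 TPM from E15.5 on, with Hbb-bh1 listed at 0 in both P0 libraries. Nearly all of the early sum was the embryonic globin gene Hbb-y (4268 and 4429 TPM at E12.5). None of the adult globin genes of the list was in the table, so this sum cannot follow blood as a whole. Choroid plexus genes (2 of 5) summed to between 303 and 452 TPM at E12.5 and between 1405 and 1517 TPM at E14. Both were called higher at that step (3.95% of all genes), and from E15.5 on their sum was at most 5.26 TPM. Meningeal genes (5 of 6) went from between 106 and 173 TPM at E12.5 and E14 to at most 6.63 TPM. Vascular genes (2 of 9) went from between 23.6 and 32.3 TPM to at most 8.39 TPM. The single microglia gene of 10 in the table stayed between 4.66 and 8.93 TPM. Astrocyte and oligodendrocyte lineage genes (4 of 11) summed to between 111 and 283 TPM over all stages, but most of that sum was Aldoc. Aldoc went from 260 and 282 TPM at E12.5 to 124 and 129 TPM at P0. Gfap went from 0.11 and 0.20 TPM to 27.7 and 25.5 TPM, and Aldh1l1 from 0.19 and 0.32 TPM to 12.9 and 14.6 TPM. Of the 3 genes tested, 2 were called higher and 1 lower from E12.5 to P0. The part of these tissues in the changes was not tested.

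Each gene was also set against the neuron markers of its own library, as log2(TPM + 1) minus the median of the 9 markers, as a description without a test. The marker median itself went from 5.89 ± 0.06 at E12.5 (SD, n = 2) through 6.61 ± 0.08 at E14, 8.32 ± 0.06 at E15.5 and 8.46 ± 0.06 at E17 to 8.45 ± 0.26 at P0. Against it, Camk2b moved from -1.71 ± 0.12 at E12.5 to -0.89 ± 0.06 at E15.5 and 0.19 ± 0.22 at P0, and Camkv from -1.88 ± 0.17 to -1.70 ± 0.04 and -0.39 ± 0.35. These 2 genes thus gained on the marker median from E14 on. Camk4 lay at -1.87 ± 0.07 at E12.5, -2.59 ± 0.08 at E15.5 and -1.25 ± 0.07 at P0.

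The other 5 genes lost ground on the neuron marker median up to E15.5. From E14 to E15.5 that median went from 6.61 to 8.32, whereas the median of the 9 single marker changes was 1.16. Camk2a went from -1.99 ± 0.15 at E12.5 to -4.94 ± 0.02 at E15.5 and -3.23 ± 0.24 at P0 (SD, n = 2). Between E12.5 and P0 the change against the marker median was -2.27 for Camk2d, -1.37 for Camk2g, -1.24 for Camkk2 and -0.86 for Camkk1. The middle marker was Snap25 in both E12.5 libraries and Map2 in both P0 libraries. Map2 alone rose by 1.08 over this span, more than Camk2d (0.29). It rose less than Camk2g (1.18), Camkk2 (1.31), Camk2a (1.31) and Camkk1 (1.70). The median of the 9 single marker changes was 2.49. This loss is thus on the median and need not hold against a single marker. From E15.5 to P0 all 8 genes gained on the marker median, for example Camk2g from -2.19 to -1.62 and Camkk1 from -4.14 to -3.53. The middle marker changed in between: it was Snap25 in both E15.5 libraries and Map2 in both P0 libraries. Map2 stood at 334 and 336 TPM at E15.5 and at 306 and 395 TPM at P0. Snap25 went from 310 and 328 TPM to 483 and 496 TPM. The gain is thus on the median and need not hold against a single marker. The median hides that single markers also rose in this time: 4 of the 9 were called higher from E15.5 to E17 and 5 of 9 from E17 to P0, with 0 lower. The synaptic vesicle gene Syt1, for one, went from 98.0 and 100.1 TPM at E15.5 to 233 and 236 TPM at P0.

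**Figure D4:**
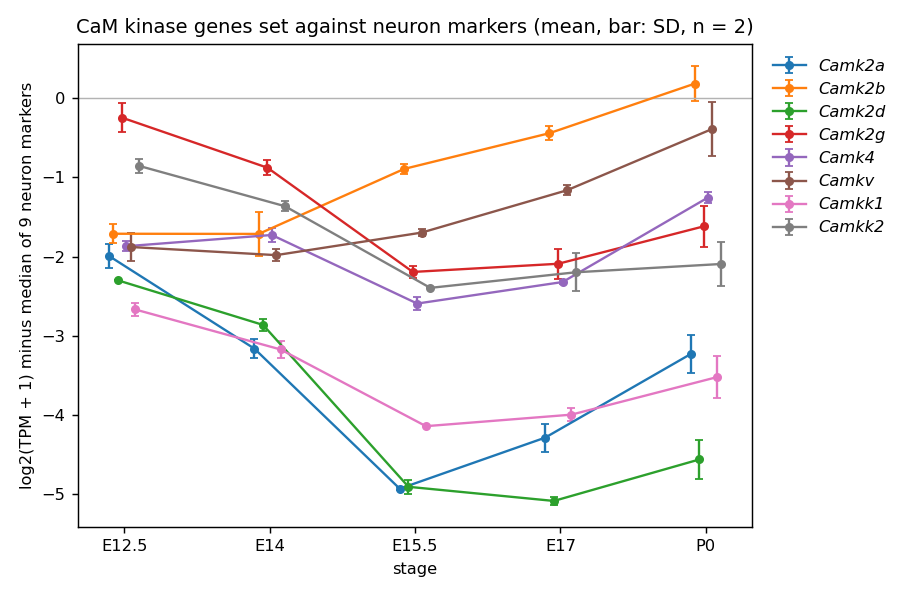
log2(TPM + 1) of each gene minus the median of 9 neuron markers in the same library (vertical axis) at the 5 stages; points are means and bars the SD of 2 libraries. Camk2b, Camkv and Camk4 end above their starting values, at 0.19, -0.39 and -1.25, whereas Camk2a is lowest at E15.5 (-4.94) and Camk2d at E17 (-5.09).

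Other genes of the pathway, in 5 lists, were set beside the family over the span from E12.5 to P0, together with Gap43. Gap43, a growth cone protein that binds calmodulin, rose from 173 to 1431 TPM (3.04, SE 0.10, adjusted p 2.4e-10 in limma).

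Of 15 listed genes for other kinases of the group, 9 were in the table and 8 were tested. Of the 8 tested genes, 7 rose and 0 fell (27.1% and 51.0% of all genes). Their median was 1.07, against -0.27 for all genes. They include the CaMKI genes Camk1 (22.9 to 54.6 TPM, a change of 1.22), Camk1d (15.8 to 68.0 TPM, 2.03) and Pnck (16.2 to 71.0 TPM, 2.06), whose products are phosphorylated by CaMKK, and Dclk1, a microtubule-associated kinase and the most abundant of the list (82.3 to 305 TPM, 1.87). Dapk1 was not called (-0.10, adjusted p 0.489). Mylk, left out of the test for its mean under 1 TPM, went from 1.52 and 1.49 TPM at E12.5 to 0.41 and 0.30 TPM at P0.

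Inhibitors and phosphatases (11 of 13 in the table) moved both ways: 7 of 11 rose, 3 fell and 1 was not called. The median was 0.31, and of all genes 27.1% were higher and 51.0% lower. Camk2n2, an inhibitor protein of CaMKII, had the highest change, from 75.3 to 436 TPM (2.51, SE 0.16, adjusted p 3.77e-08). The E17 and P0 libraries of Camk2n2 were wide apart, at 402 and 284 and at 496 and 376 TPM. The calcineurin genes Ppp3ca, Ppp3cb and Ppp3r1, whose products form a calcium-dependent phosphatase, rose by 1.75, 1.22 and 1.06. Of the phosphatases that act on CaM kinases, Ppm1e rose (0.69, adjusted p 9.48e-05) and Ppm1f fell from 77.2 to 31.8 TPM (-1.25, adjusted p 5.81e-07). Ppp1cb, the most abundant of the list at E12.5 (571 TPM), stood at 618 TPM at P0, where Ppp2ca was higher at 656 TPM. The change of Ppp1cb was not called (0.11, adjusted p 0.346 in limma), but under median-of-ratios scaling it was (0.39, adjusted p 0.02).

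Among synaptic partners and substrates of CaMKII (15 of 21 in the table), 10 rose (27.1% of all genes) and 2 fell (51.0%). The other 3 were not called, and the median was 1.51. The share of this list called in either direction was thus near the 78.2% of all genes. From E17 to P0 alone, 1 of the 15 was called higher and 4 lower (12.9% and 28.8% of all genes). The median at this step was -0.15, against -0.10 for all genes. Grin2b, the NMDA receptor subunit that binds CaMKII, rose most, from 9.44 to 70.6 TPM (2.77, SE 0.28, adjusted p 2.96e-06); its E17 libraries stood at 191 and 79.2 TPM, above both P0 libraries at 63.3 and 78.0 TPM. Dlg4, which encodes the postsynaptic scaffold PSD-95, rose from 67.1 to 229 TPM (1.75). The 2 that fell were the actin cross-linkers Actn1 (-1.27) and Actn4 (-0.64). Map2 was the most abundant gene of this list (164 to 351 TPM, 1.08); it and Syn1 were also among the neuron markers.

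Of the targets of CaMKIV and CaMKK (11 of 16 in the table), 4 were higher, 4 lower and 3 not called (median 0.04). The share called was near the 78.2% of all genes (27.1% higher, 51.0% lower). Creb1, which encodes the CREB protein phosphorylated by CaMKIV, fell from 232 to 105 TPM (-1.14, SE 0.10, adjusted p 4.99e-07) while Camk4 rose. Mef2c, a transcription factor of maturing neurons, had the highest change, from 40.6 to 872 TPM (4.38, SE 0.12, adjusted p 4.63e-11), and Crtc1, a coactivator of CREB, rose from 30.8 to 78.3 TPM (1.32). Of the catalytic subunits of AMPK, which CaMKK2 phosphorylates, Prkaa2 rose from 23.7 to 62.7 TPM (1.35) and Prkaa1 was not called (0.09, adjusted p 0.436). Under median-of-ratios scaling this list had 6 higher and 3 lower, with Prkaa1 called at 0.36.

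For calcium entry and release (7 of 19 genes in the table), 4 rose, 1 fell and 2 were not called (median 1.09). This was again a share called near the 78.2% of all genes (27.1% higher, 51.0% lower). From E17 to P0 alone, 0 of the 7 were called higher and 5 lower (12.9% and 28.8% of all genes). The median at this step was -0.51, against -0.10 for all genes. Cacnb1 and Cacnb3, auxiliary subunits of voltage-gated calcium channels, rose by 1.42 and 1.09, and Cacnb3 was the most abundant (91.7 to 197 TPM). Cacna2d2, another auxiliary subunit, fell from 7.74 to 5.07 TPM (-0.52, adjusted p 0.00347), a direction that turned to 0.045 under quantile normalization.

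**Figure D5:**
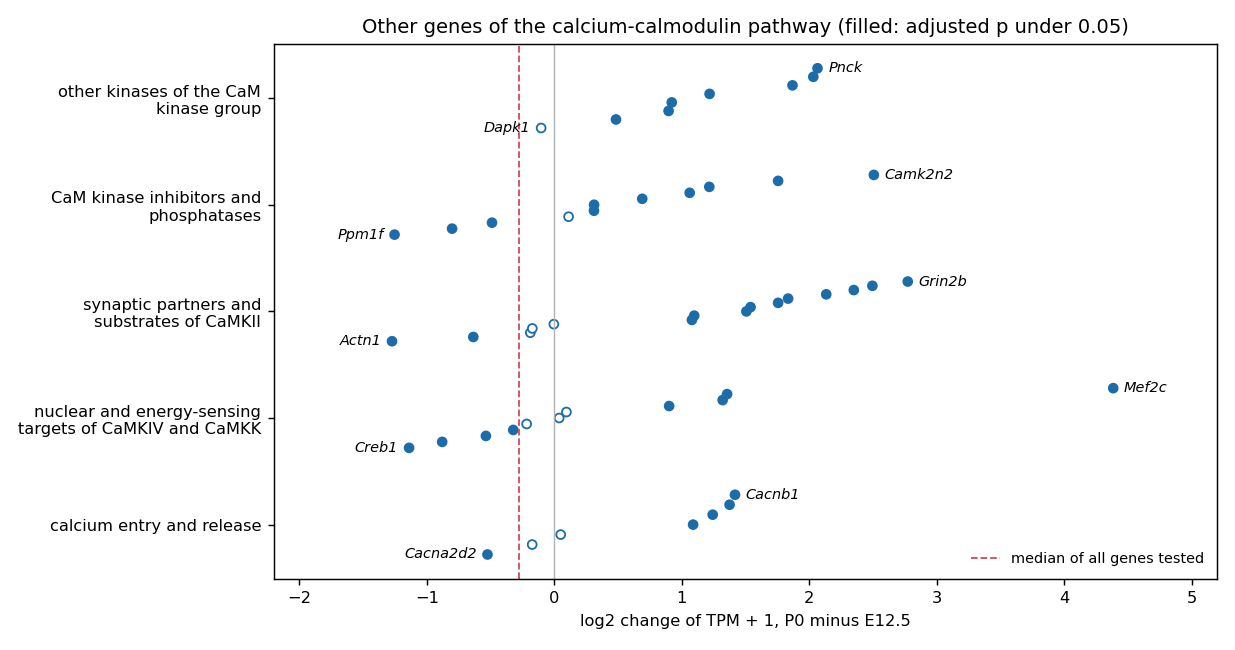
Change from E12.5 to P0 on the log2(TPM + 1) scale (horizontal axis) of each tested gene of the 5 pathway lists (rows); filled points have an adjusted p under 0.05 in limma, and the dashed line is the median of all genes tested, -0.27. The highest and lowest gene of each list is named, from Mef2c at 4.38 to Actn1 at -1.27.

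The genes whose profiles were most like each CaM kinase gene were named by the root mean square difference of centred log2(TPM + 1) over the 10 libraries, among 5422 genes that averaged 10 TPM or more. This is a description, since the libraries share stage and scaling. For Camk2b they were Prkar1b, a regulatory subunit of protein kinase A (0.146), Diras2 (0.178) and Gucy1a3, a subunit of the nitric oxide receptor (0.191). Camkv shared Prkar1b (0.131), after Psd (0.125) and before the small GTPase gene Rac3 (0.155). Camk4 was nearest to Gap43 (0.162), Erc2 (0.179) and Cnrip1 (0.192).

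For the flatter genes the nearest profiles were closer still. Camk2g lay within 0.0573 of Ttl, the tubulin tyrosine ligase gene, and next to Slc25a12 (0.0603) and the kinesin light chain gene Klc1 (0.0675). Camkk1 was nearest to Ndrg3 (0.0629), Gpd1l (0.0712) and Cend1 (0.0760), and Camkk2 to Inpp4a (0.0618), Pfkfb2 (0.0662) and Pip5k1c (0.0713). Camk2d was nearest to Pts (0.0871), Pex7 (0.0899) and Usp46 (0.0978). The profile of Camk2a, taken over all 10 libraries, was matched least closely: its nearest genes, Gpd2, Fut8 and Tbc1d5, differed by 0.201, 0.203 and 0.212. Within the family, the closest pair was Camkk1 and Camkk2 (0.156) and the most distant Camk2b and Camk2d (1.80).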

How the data were processed

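The table of TPM was deposited by the authors with 1 column per library. The submitters' processing notes list STAR, Subread and the build GRCm38.p5, with no version or role for either tool; the annotation, gene lengths, strand setting and rule for listing 6147 genes were not stated in the sources used here. TPM are shares of a total, so a rise of abundant genes lowers others, and the read depth is unknown. Column names gave the library (0 columns were left over). Values were tested as log2(TPM + 1) with limma 3.58.1 in R 4.3.3, 1 mean per stage over all 10 libraries (5 residual degrees of freedom) and a variance trend, after 99 genes with a mean under 1 TPM were left out; all 8 CaM kinase genes passed. A fold change on this scale understates that of low genes. Fold changes called times are ratios of mean TPM. Within-library ratios were tested by exact permutation. Both tests were tried on simulated data. Named genes are all 8 family genes; in each pathway list the highest and lowest change, the most abundant gene and direct binders, inhibitors, substrates or kinases; and the 3 nearest profiles of each family gene. Some of these genes are not reported here. The family and the lists were chosen with earlier results of these data known. Positions came from GENCODE M21 (GRCm38) and promoters from RefSeq (GRCm38.p6). Alternatives covered pseudocount, filter, scaling, moderation, weights, block and single libraries.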

Additional observations from a re-analysis of the deposited data

How the results depend on the processing

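With 2 libraries per stage, precision rests on the spread shared over stages, and TPM carry no depth. The 24 alternatives gave 1120 results for single CaM kinase genes, which are the changes between stages and the F tests over the 5 stages. Of these, 1058 kept their side of the threshold, among them every F test. A call was lost in 44 and gained in 18, and the direction of a called change reversed in 0. All 8 genes were called over the 5 stages in each of 22 alternatives. Leaving out 1 library gave 7 to 8 genes called from E12.5 to P0, 1 to 5 from E12.5 to E14 (1 without E12.5 replicate 1), 5 to 7 from E14 to E15.5, 3 to 7 from E15.5 to E17 (7 without E17 replicate 2) and 7 to 8 from E17 to P0. With only the 4 libraries compared in the fit, 1 gene was called from E15.5 to E17. From E17 to P0 the lowest count over all alternatives was 5. An adjusted p under 0.01 gave 7 from E12.5 to P0. The fit without E17 libraries, chosen after seeing the data, gave 8. Median-of-ratios scaling moved the median of all genes from E12.5 to P0 from -0.27 to -0.01, and that of the 8 genes from 1.51 to 1.77.

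The difference of the log2 ratio of Camk2g to Camk2d was 0.76 to 1.02 without 1 library; that of Camkk2 to Camkk1 turned to 0.017 with a pseudocount of 10 TPM. Of 1296 results for pathway genes, a call was lost in 6 and gained in 12, and the sign turned in 4 that were called on either side. Dlg3, not called in the main fit (-0.004), was called at 0.26 under median-of-ratios scaling and at 0.28 under quantile normalization. Under quantile normalization, Tiam1 went from -0.17, not called, to 0.30, called. Cacna2d2 went from -0.52, called, to 0.045, not called. The cause was not tested.

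Replicate numbers are shared between stages in the titles only. Correlations of replicate differences between stages ran from -0.37 to 0.11. Such values cannot settle whether libraries of the same number were handled together, and the main fit used no pairing. With the replicate block, 3 genes were called from E12.5 to E14 in place of 4 (Camk2a, adjusted p 0.0565), and the other counts were as without it.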
